A study of Mus musculus with 60 samples.

Results

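LINE-1 (L1) elements are the main autonomous retrotransposons of mammalian genomes. A complete copy carries a promoter, a gene for an RNA-binding protein and a gene for an endonuclease and reverse transcriptase, and it spreads by copying its own RNA back into DNA. Most copies are old, truncated fragments that no longer move, and many of them lie inside introns or untranslated parts of other transcripts. The mouse still has active L1Md copies of the A, T and Gf types, which embryonic stem cells keep in check with DNA methylation, H3K9 methylation and the HUSH complex, a repressor of long intron-poor transcripts.

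The 124 L1 subfamilies described here are the repeat rows whose names begin with L1 or Lx and that held at least 100 counts over all libraries, out of 126 such rows and 1146 repeat subfamilies in all. The 6 L1Md subfamilies (A, T, Gf, F, F2 and F3) are called young and the other 118 older. The subfamilies nearest the count threshold were L1M6B and L1M3f, with 154 and 155 counts, and L1M3a and L1M2a1, with 29 and 16, which were left out.

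RNA was sequenced from mouse embryonic stem cells of the E14JU line, all carrying POLE4 fused to a dTAG degron, so that dTAG-13 removes the POLE4 protein. POLE4 belongs to the leading strand polymerase and takes part in recycling parental histones to that strand, and MCM2-2A is a histone-binding mutant of the helicase subunit MCM2, which takes part in recycling to the lagging strand. Cells with normal MCM2 or with MCM2-2A received DMSO and are called Ctrl and Ctrl MCM2-2A, or received dTAG-13 and are called dPOLE4 and dPOLE4 MCM2-2A. They were collected after 24 h in serum and LIF (T0), after a further 12, 24 or 60 h in retinoic acid (RA) without LIF (T12, T24, T60, as the sample titles give the times), or, in a separate experiment without RA, after 96 h of treatment. Each of the 20 groups had 3 libraries. Each MCM2 genotype was 1 clone, so genotype and clone cannot be told apart.

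The RA libraries held between 10461077 and 46609151 counts and the 96 h libraries between 7126100 and 23598266. The 7 pluripotency markers Pou5f1, Sox2, Nanog, Zfp42, Esrrb, Klf4 and Tfcp2l1 were all detected at T0, and their summed level was 2837 to 3273 CPM, which are counts normalized to library size, in the 12 libraries of that time. Since dTAG-13 acts on a protein and MCM2-2A changes amino acids, the RNA of Pole4 and Mcm2 is no direct check of either change. Their summed level was still lower in Ctrl MCM2-2A than in Ctrl at every time, without overlap. At T0 it was 320 to 384 CPM against 538 to 561 CPM in Ctrl. At T60 it was 173 to 188 against 279 to 322 CPM, and at 96 h 318 to 335 against 574 to 601 CPM. The sum does not show which gene differed, and its part in the L1 differences was not tested.

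L1 reads made up between 0.515% and 1.39% of the counts of a library. Over all libraries the young subfamilies held 50.8% of the L1 counts. Among them L1Md_A held 42.5% of the young counts and L1Md_T 37.6%, followed by L1Md_F2 with 11.6% and L1Md_F3 with 4.07%. The largest older classes were the Lx elements of the rodent lineage (21 subfamilies, 18.6% of L1 counts) and the other mouse and rodent L1 (12 subfamilies, 15.998%). The ancient mammalian classes L1MA to L1ME and the remaining L1M and L1P held between 0.902% and 3.92% each. Their leading members were L1_Mus1, Lx3B, L1MEg, L1M4, L1MB7, L1MC4, L1MA6 and L1MD, with mean levels from 467 down to 27.9 CPM. These are counts per subfamily with no correction for length or copy number, so they rank contributions to the library and not the output of a copy.

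The balance of young to old was followed as the log2 ratio of summed young to summed older counts in each library, which needs no normalization between libraries. It ran from -0.68 to 0.77 over the 60 libraries. The highest group means were those of dPOLE4 MCM2-2A at 96 h, 0.74 ± 0.04 (SD, n = 3), and Ctrl MCM2-2A at 96 h, 0.65 ± 0.04. The lowest were dPOLE4 at T60, -0.56 ± 0.05, and Ctrl at T60, -0.59 ± 0.10. With the 20 groups in order of their means, 16 of the 19 neighbouring pairs overlapped. The gaps lay below each of the MCM2-2A groups of the 96 h experiment and above the T60 groups with normal MCM2. The 96 h and RA libraries came from separate experiments, so the length of treatment and the experiment cannot be told apart between them.

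**Figure D1:**
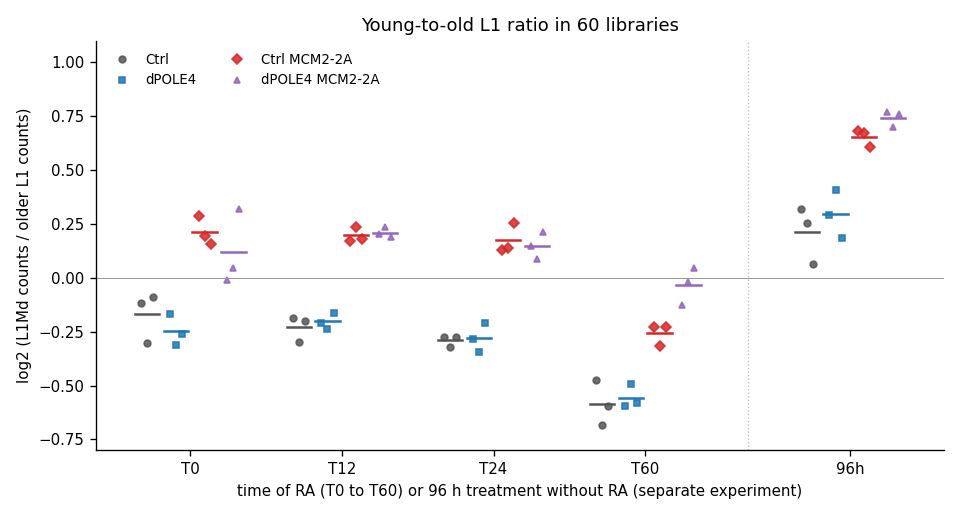
Log2 ratio of summed young (L1Md) to summed older L1 counts for each of the 60 libraries (points), by time and arm, with bars at the mean of 3 libraries. The Ctrl MCM2-2A libraries lie above the Ctrl libraries at each of the 5 times, and the T60 libraries of both arms with normal MCM2 lie at the bottom, between -0.68 and -0.48.

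Young L1 RNA took a larger share in MCM2-2A cells than in cells with normal MCM2 at each of the 5 times. At T0 the log2 ratio was -0.12, -0.30 and -0.09 in the Ctrl libraries and 0.29, 0.20 and 0.16 in the Ctrl MCM2-2A libraries. The mean ratio was higher by 0.38 at T0, 0.43 at T12, 0.46 at T24, 0.33 at T60 and 0.44 at 96 h, or by 1.25-fold to 1.38-fold. The libraries of the 2 genotypes did not overlap at any of these times. The summed level of the young subfamilies was 1.18-fold higher at T0, with overlapping libraries, and 1.44-fold, 1.37-fold, 1.46-fold and 1.29-fold higher at T12, T24, T60 and 96 h, without overlap. The older sum was 0.908 to 1.16 times that of Ctrl, and its libraries did not overlap at T60 alone.

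L1Md_A, the most abundant active type, stood out among the young members. Its level at T12 was 1519, 1313 and 1658 CPM in Ctrl and 2497, 2679 and 2217 CPM in Ctrl MCM2-2A. At T60 it was 714, 719.7 and 688 CPM in Ctrl and 1204, 1121 and 1118 CPM in Ctrl MCM2-2A. The genotypes were apart in every library at all 5 times. By edgeR's quasi-likelihood test with Benjamini-Hochberg adjustment, its log2 fold change was 0.73 ± 0.10 (SE) at T12 (adjusted p = 0.00023), 0.67 ± 0.06 at T24 (adjusted p = 2.1e-07) and 0.71 ± 0.07 at T60 (adjusted p = 7.8e-07). These passed the limits for differential expression (DE) used throughout, an adjusted p below 0.01 with a log2 fold change beyond 0.58. At T0 (0.33 ± 0.08, adjusted p = 0.0049) and at 96 h (0.52 ± 0.10, adjusted p = 0.0010) the fold was under that limit, and at 96 h it passed without Ctrl replicate 1 (0.59).

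L1Md_T and L1Md_Gf, the other types with active copies, had positive values at all 5 times. L1Md_T was at 836, 937 and 907 CPM in Ctrl at T60 and at 1279, 1416 and 1343 CPM in Ctrl MCM2-2A, a log2 fold change of 0.60 ± 0.07 (adjusted p = 1.0e-05), and this was its only DE call. Without Ctrl T60 replicate 1 or Ctrl MCM2-2A T60 replicate 2 its value was 0.55 or 0.56, under the fold limit. At the other times its values were 0.25 to 0.55. L1Md_Gf was at 65.3, 62.4 and 62.5 CPM in Ctrl at T60 and at 86.7, 86.7 and 88.7 CPM in Ctrl MCM2-2A. Its log2 fold changes ran from 0.30 at T0 to 0.47 at T60, with adjusted p from 1.5e-05 to 0.024, and none reached the fold limit.

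The F types had no DE call in this comparison. L1Md_F2 had values between -0.17 and 0.27 over the 5 times and L1Md_F3 between -0.12 and 0.08. At T60 L1Md_F3 was at 144, 148 and 142 CPM in Ctrl and at 145, 138 and 131 CPM in Ctrl MCM2-2A, with overlapping libraries. L1Md_F had larger values, up to 1.00 ± 0.29 at T60 (adjusted p = 0.011). They rested on single libraries such as Ctrl MCM2-2A T60 replicate 1, at 121 CPM against 43.5 and 46.4 CPM in the other replicates. Restricting young to L1Md_A, L1Md_T and L1Md_Gf gave a larger difference in ratio at T12, T24 and T60 (0.52, 0.57 and 0.42). Weighting members equally, by the mean over members of log2 CPM, gave a smaller one of 0.20, 0.41, 0.20 and 0.28 at T12, T24, T60 and 96 h, and leaving out the most abundant member of each class gave 0.29, 0.32, 0.24 and 0.34.

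**Figure D2:**
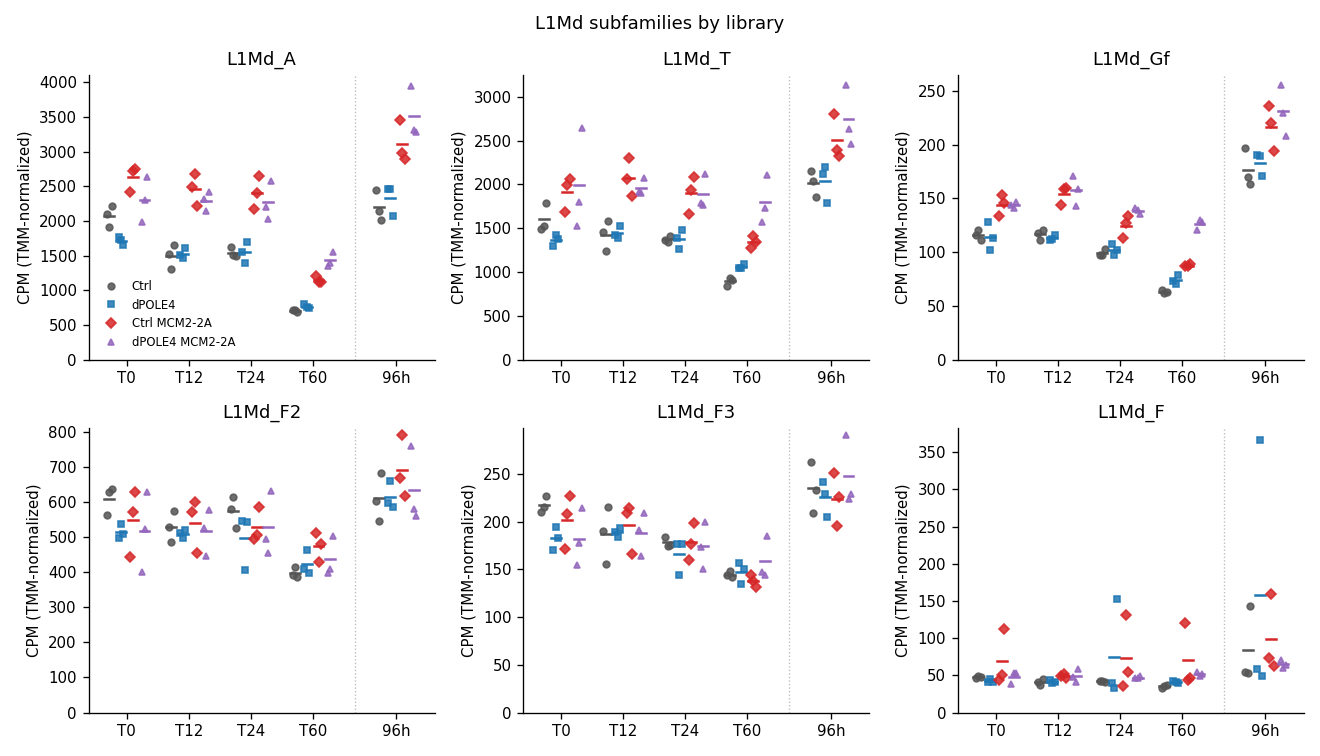
Level of each of the 6 L1Md subfamilies in TMM-normalized CPM (y axes start at 0) for every library, by time and arm, with bars at the mean of 3 libraries. L1Md_A, L1Md_T and L1Md_Gf have higher means in the MCM2-2A arms and lower means at T60 than at T0. Between the MCM2 genotypes L1Md_A and L1Md_T overlap at T0 and L1Md_Gf at 96 h. L1Md_T also overlaps between T0 and T60 in dPOLE4 MCM2-2A. L1Md_F2 and L1Md_F3 overlap more between arms, and L1Md_F has 7 libraries above 100 CPM.

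Few members were DE between Ctrl MCM2-2A and Ctrl. At T0 there was 1 of 113 tested, where 18.9% of all features tested were DE. At T12 there were 4 of 112 against 14.5%, at T24 2 of 114 against 17.3%, at T60 5 of 112 against 16.9% and at 96 h 1 of 114 against 15.7%. All of these shares lay below that of all features. The counts depended on single libraries. The shares of all features called without each library are not given here, so the counts that follow cannot be set against them. At T60, where 5 members were DE, there were 2 without Ctrl replicate 1, 27 without Ctrl replicate 2 and 8 without Ctrl MCM2-2A replicate 3. At T0 the count was 0 without Ctrl replicate 2 or 3 or Ctrl MCM2-2A replicate 2, 2 without Ctrl MCM2-2A replicate 1 and 4 without its replicate 3. At T12 it was 2 without replicate 1 of either group, and at T24 it was 4 without Ctrl MCM2-2A replicate 1 or 3. At 96 h it was 2 without replicate 1 of either group and 0 without Ctrl replicate 3 or Ctrl MCM2-2A replicate 2. Replicate numbers were taken to pair the 96 h libraries. With the number as a block 2 members were DE there, L1M7 and L1ME3, again without the share of all features.

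L1M7, an ancient mammalian subfamily with few reads, was the older member called most often. It was lower in MCM2-2A cells at T0, T12, T24 and 96 h, by -0.77 ± 0.19 (adjusted p = 0.0063), -0.87 ± 0.18 (adjusted p = 0.0031), -0.94 ± 0.18 (adjusted p = 0.00051) and -1.05 ± 0.22 (adjusted p = 0.0021). At T24 the Ctrl libraries were at 5.39, 3.78 and 4.67 CPM and the Ctrl MCM2-2A libraries at 2.49, 2.06 and 2.72 CPM. At T60 the order was gone, with 1.34, 1.83 and 0.86 CPM in Ctrl and 1.90, 1.91 and 1.63 CPM in Ctrl MCM2-2A. Its counts ran from 9 to 184 a library, and the T0, T12 and 96 h calls were lost when any of several single libraries was left out, with values at or below -0.56. These were, at T0, Ctrl replicate 2 or 3 or Ctrl MCM2-2A replicate 1 or 2; at T12, replicate 1 or 3 of either group; and at 96 h, Ctrl replicate 3 or Ctrl MCM2-2A replicate 2.

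The other older calls were higher in MCM2-2A cells. L1M2c was at 2.71, 2.59 and 3.13 CPM in Ctrl at T12 and at 5.03, 5.40 and 3.67 CPM in Ctrl MCM2-2A (0.77 ± 0.19, adjusted p = 0.0085). At T60 it was at 1.40, 1.74 and 2.97 CPM against 3.98, 4.14 and 4.29 CPM (1.09 ± 0.24, adjusted p = 0.0019), and without Ctrl T60 replicate 1 this was no longer a call (0.82, adjusted p = 0.016). At T12 the L1M2c call was lost without any one of 5 of the 6 libraries, all but Ctrl MCM2-2A replicate 3, where the values were 0.66 to 0.84. L1MEb at T12 was at 0.85, 0.80 and 0.91 CPM in Ctrl and at 1.99, 2.18 and 2.44 CPM in Ctrl MCM2-2A (1.36 ± 0.23, adjusted p = 0.00089). L1MD1 and L1MC3 completed the calls at T60 with 0.67 ± 0.13 (adjusted p = 0.00055) and 0.64 ± 0.13 (adjusted p = 0.0012).

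The older members as a class lay below Ctrl at T0 and T24 and above it at T12 and T60. Their median log2 fold change was -0.19, 0.15, -0.14, 0.35 and -0.06 at T0, T12, T24, T60 and 96 h, against 0.27, 0.35, 0.42, 0.54 and 0.28 for the young. The median over all features was between -0.02 and 0.01 at each time. The SINE subfamilies, a class of short retrotransposons, had medians of -0.15, 0.14, -0.15, 0.33 and -0.03, with the same signs as the older L1 and close values. Of the older members, 97 of 107 had a negative value at T0, 90 of 108 at T24 and 71 of 108 at 96 h, and 89 of 106 had a positive value at T12. At T60, 99 of the 106 older members tested and 5 of the 6 young had a positive value, and 39 older members had Ctrl MCM2-2A libraries all above Ctrl, where 26.7% of all features did. The L1MB and L1MD classes had the highest medians there, 0.47 and 0.50, and the Lx and the mouse and rodent classes the lowest, 0.24 and 0.22.

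**Figure D3:**
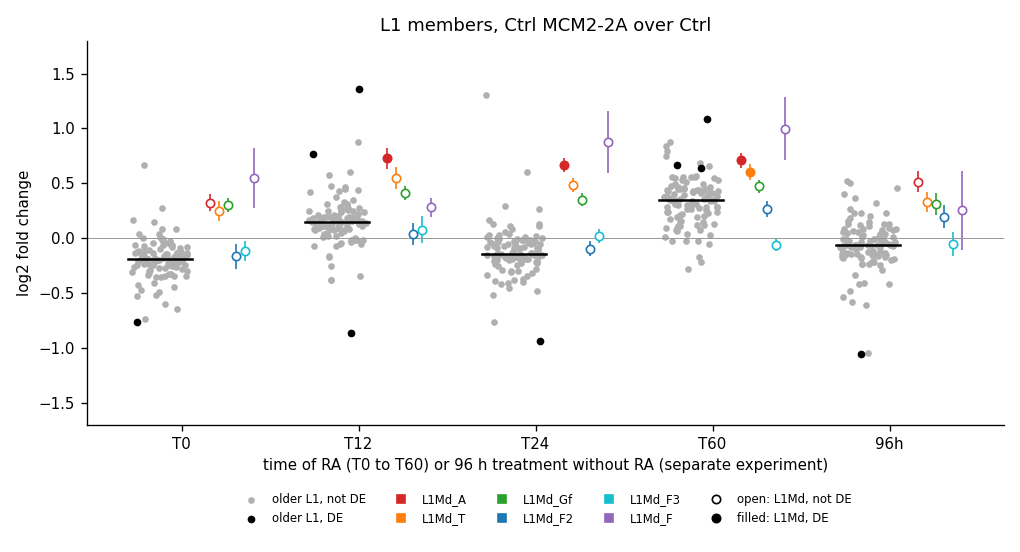
Log2 fold change of Ctrl MCM2-2A over Ctrl at each time for the older L1 members (points, black where DE, black bar at the median) and the 6 L1Md subfamilies (coloured, filled where DE, bars ± SE). L1Md_A, L1Md_T and L1Md_Gf lie above the older median at each time, while the older median moves from -0.19 at T0 to 0.35 at T60.

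Mean L1 levels were lower after 60 h of RA in each arm, though part of the MCM2-2A libraries overlapped. The mean share of the young subfamilies was lower with them. In Ctrl cells the young sum was 4528, 4452 and 5025 CPM at T0 and 2183, 2316 and 2223 CPM at T60, and the older sum went from a mean of 5249 to 3371 CPM. Neither overlapped. The log2 ratio of young to old was 0.42 lower at T60 in Ctrl, 0.31 lower in dPOLE4 and 0.47 lower in Ctrl MCM2-2A, without overlap, and 0.15 lower in dPOLE4 MCM2-2A, with overlap. The composition of the young class differed too: the share of L1Md_A in the young counts in Ctrl cells was 44.5% at T0 and 31.6% at T60. With the most abundant member of each class left out, the difference in ratio was -0.11 in Ctrl, -0.017 in dPOLE4 and -0.18 in Ctrl MCM2-2A, and it was 0.055 in dPOLE4 MCM2-2A.

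In Ctrl cells 71 of the 112 members tested fell and 1 rose. Here and below, counts of members that fell or rose are of those that were DE. Of all features 50.6% were DE, 23.7% lower and 26.9% higher. L1Md_A went from 2099.8, 1914 and 2219.7 CPM at T0 to 714, 719.7 and 688 CPM at T60, a log2 fold change of -1.57 ± 0.07 (adjusted p = 4.0e-11). L1Md_Gf (-0.89 ± 0.06), L1Md_T (-0.86 ± 0.08), L1Md_F2 (-0.64 ± 0.07) and L1Md_F3 (-0.61 ± 0.06) fell as well, and L1Md_F (-0.46 ± 0.07, adjusted p = 3.8e-05) was under the fold limit. Of the older members 66 of 106 were DE lower, and 103 had a negative value, where 50.6% of all features had. The median log2 fold change over all older members tested was -0.70, against -0.75 for the young and -0.01 for all features. The SINE subfamilies had a median of -0.69, LINE subfamilies other than L1 also -0.69, and the subfamilies classed by name as LTR elements -0.85. Each older class had members that were DE lower. The class medians ran from -0.53 for Lx, with 9 of 21 DE lower, to -0.84 for the mouse and rodent L1, with 9 of 12. Without Ctrl T60 replicate 1 the number DE was 47, and the share of all features called there is not given.

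The largest decreases among older members in Ctrl cells were in thinly covered ancient subfamilies. L1M7 went from 5.72, 7.24 and 6.52 CPM to 1.34, 1.83 and 0.86 CPM (-2.28 ± 0.23, adjusted p = 3.2e-07). L1MCc went from 3.85, 3.65 and 2.93 CPM to 0.91, 0.82 and 1.34 CPM (-1.79 ± 0.26, adjusted p = 1.6e-05), and L1MEi fell by 1.57 ± 0.25 on the log2 scale. Better covered members fell by less: L1_Mus1, the leading mouse and rodent member, by 0.65 ± 0.06, and L1M4 by 0.85 ± 0.11. Lx3B, the leading Lx member, was at -0.55 ± 0.06 and L1MEg at -0.58 ± 0.07, just under the fold limit.

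Lx2A was the only member called higher. It went from 4.48, 4.10 and 3.39 CPM to 6.20, 7.58 and 4.80 CPM in Ctrl (0.62 ± 0.19, adjusted p = 0.0085) and from 4.196, 3.51 and 4.12 CPM to 7.77, 6.57 and 7.38 CPM in dPOLE4 (0.85 ± 0.14, adjusted p = 6.3e-05). The Ctrl call was lost without Ctrl T0 replicate 2 or 3 or Ctrl T60 replicate 1 or 2 (0.47 to 0.63), in DESeq2 (adjusted p = 0.028) and with scaling factors from genes alone (0.59, adjusted p = 0.012).

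Fewer members passed in the other arms. In dPOLE4 cells 23 fell and 1 rose of 115 tested, with 48.1% of all features DE, 22.5% lower and 25.6% higher. In Ctrl MCM2-2A cells 9 of 114 fell against 47.5% of all features DE and 21.2% lower, and in dPOLE4 MCM2-2A cells 9 of 115 fell against 42.2% and 19.3%. The 4 arms share no libraries here, and 22 members were DE in the same direction in Ctrl and dPOLE4, which is 30.6% of the Ctrl list and 91.7% of the dPOLE4 list. L1Md_A, L1MEi, L1MEj and Lx2B2 were DE lower in all 4 arms. L1Md_A had log2 fold changes of -1.57 ± 0.07, -1.19 ± 0.05, -1.18 ± 0.08 and -0.72 ± 0.11 in Ctrl, dPOLE4, Ctrl MCM2-2A and dPOLE4 MCM2-2A. Single libraries moved these counts too: in dPOLE4 to 14 without T60 replicate 2, in Ctrl MCM2-2A to 23 without T0 replicate 1, and in dPOLE4 MCM2-2A to 5 without T0 replicate 2, T0 replicate 3 or T60 replicate 1 and to 4 without T60 replicate 2. The shares of all features called without these libraries are not given.

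**Figure D4:**
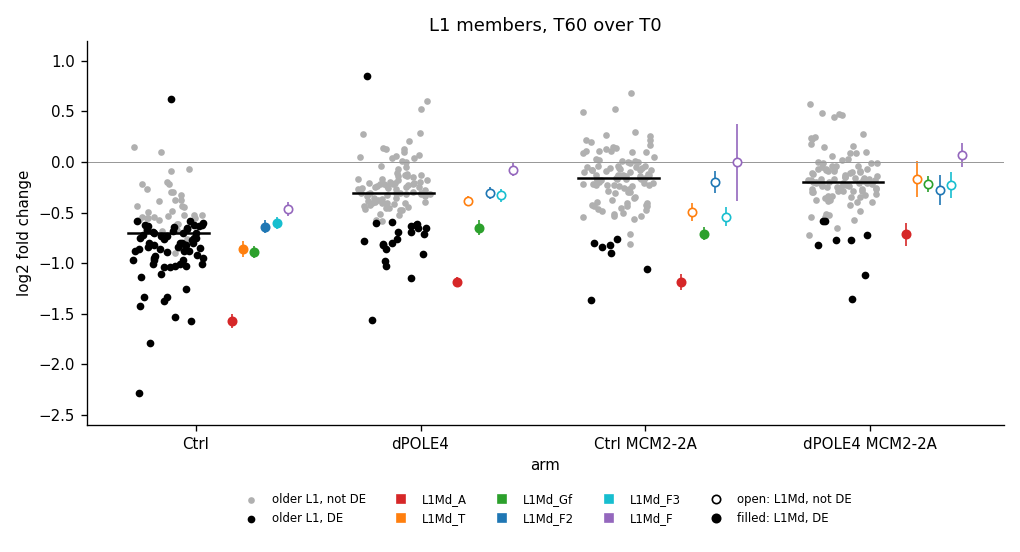
Log2 fold change from T0 to T60 in each arm for the older L1 members (points, black where DE, black bar at the median) and the 6 L1Md subfamilies (coloured, filled where DE, bars ± SE). L1Md_A is DE lower in all 4 arms, at -1.57 in Ctrl and -0.72 in dPOLE4 MCM2-2A, and the median of the older members is -0.70 in Ctrl against -0.30, -0.16 and -0.20 in the other arms.

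The difference between an arm's response and that of Ctrl was tested directly as an interaction, with the same Ctrl libraries in each test. For dPOLE4 no member passed the DE limits (0.0104% of all features did), though 68 of 116 had an unadjusted p below 0.05. Of all features 2518 of 19306 had such a p. L1Md_A was at 0.40 ± 0.08 (adjusted p = 0.096) and L1Md_T at 0.49 ± 0.10 (adjusted p = 0.083). For Ctrl MCM2-2A 4 older members fell by less than in Ctrl, where 9.1% of all features differed, 4.7% in that direction. For dPOLE4 MCM2-2A 11 members fell by less, 2 young and 9 older, against 10.9% and 4.98%, and among them L1Md_A differed by 0.86 ± 0.14 (adjusted p = 0.00022) and L1Md_Gf by 0.68 ± 0.09 (adjusted p = 4.2e-05). By DESeq2 12 members differed for Ctrl MCM2-2A and 17 for dPOLE4 MCM2-2A. With the replicate number as a block 23 and 26 did, though the numbers were not shown to pair these libraries. Without a filter on low counts 36 and 32 did, against 9 for dPOLE4. The shares of all features under these settings are not given here, so these counts cannot be set against them. Leaving out single libraries gave 0 to 24 and 6 to 33 members, both highest without Ctrl T60 replicate 2. The lowest counts came without Ctrl T0 replicate 2 or 3 or Ctrl T60 replicate 3 for Ctrl MCM2-2A, and without Ctrl T0 replicate 3 or Ctrl T60 replicate 1 for dPOLE4 MCM2-2A. Without the T0 replicate 3 of either MCM2-2A arm they were 21 and 22. For Ctrl MCM2-2A the count was 1 without Ctrl T60 replicate 1 or Ctrl MCM2-2A T60 replicate 2 or 3 and 2 without Ctrl MCM2-2A T0 replicate 1 or 2, and for dPOLE4 MCM2-2A it was 7 without Ctrl T0 replicate 2 or dPOLE4 MCM2-2A T0 replicate 1.

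Marker lists moved with these differences. At T60 the summed level of the 7 pluripotency markers was 182 to 210 CPM in Ctrl, 195 to 220 CPM in dPOLE4, 415 to 532 CPM in Ctrl MCM2-2A and 560 to 744 CPM in dPOLE4 MCM2-2A, and none of the 7 was at 0. All 7 had fallen in each arm, and 6 of them were DE higher in Ctrl MCM2-2A than in Ctrl at T60. L1Md_A at T60 stood in the same order, at 688 to 719.7, 748 to 797, 1118 to 1204 and 1349 to 1549 CPM. The 11 markers of other cell types summed to 488 to 644 CPM in Ctrl, 409 to 438 CPM in dPOLE4, 413 to 444 CPM in Ctrl MCM2-2A and 295 to 339 CPM in dPOLE4 MCM2-2A, and the 7 RA and neural markers to 656 to 818, 710.3 to 713, 618 to 640.3 and 535 to 565 CPM. No marker of these lists was at 0 counts in all libraries of a group. The part of the marker differences in the L1 difference was not tested, and in bulk RNA more undifferentiated cells and more L1 RNA per cell cannot be told apart. At T0 the pluripotency sums overlapped (2995 to 3127 CPM in Ctrl and 2935 to 3273 CPM in Ctrl MCM2-2A), while the ratio of young to old did not. The RA and neural sum was 116 to 140 CPM in Ctrl and 51.3 to 59.1 CPM in Ctrl MCM2-2A there. That of the other cell types was 155 to 176 and 117 to 139 CPM, and neither of these 2 sums overlapped. Their part in the L1 difference at T0 was not tested.

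**Figure D5:**
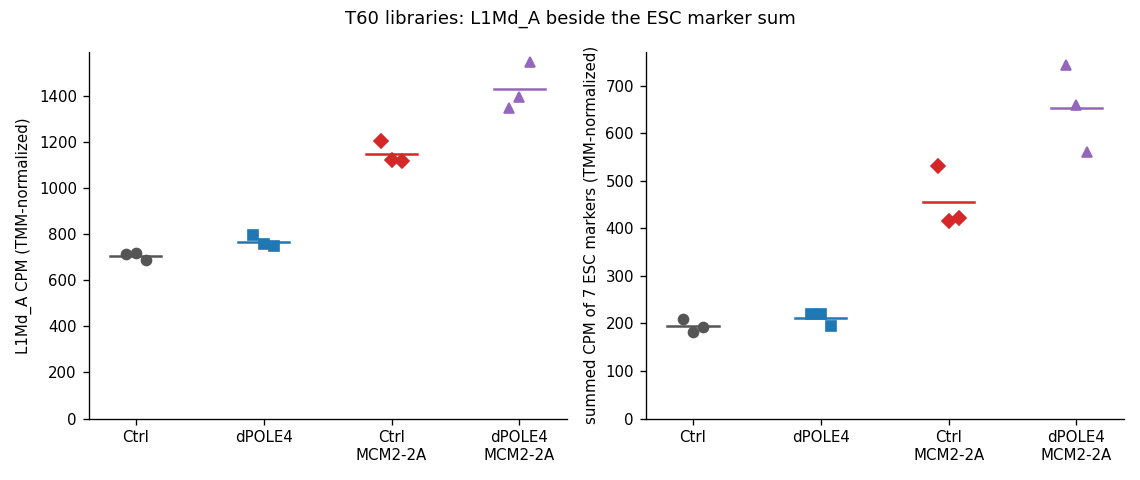
Level of L1Md_A (left) and summed level of 7 pluripotency markers (right) in the 12 T60 libraries by arm, in TMM-normalized CPM, with bars at the mean of 3 libraries. Both are lowest in Ctrl and dPOLE4 and highest in dPOLE4 MCM2-2A, where L1Md_A is at 1349 to 1549 CPM.

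Early in RA few members passed. In Ctrl cells L1MEb (-1.08 ± 0.26, adjusted p = 0.0069) and L1ME3E (-0.88 ± 0.21, adjusted p = 0.0065) were lower at T12, 2 of 112 tested where 11.3% of all features were DE. None was called at T24, where 21.8% of all features were DE (DESeq2 called none either). At T24 46 of 114 members had an unadjusted p below 0.05 by edgeR, and so had 10909 of the 18350 features tested. In dPOLE4 cells L1ME3E (-0.76 ± 0.20) was called at T12 and L1M3e (-0.70 ± 0.18) at T24, against 11.7% and 19.2%. In Ctrl MCM2-2A cells L1MEj (-1.05 ± 0.28) was called at T24 against 23.9%. By edgeR no member was called at T12 in Ctrl MCM2-2A or at T12 and T24 in dPOLE4 MCM2-2A, against 8.65%, 7.79% and 19.6% of all features. There 1 of 112, 15 of 114 and 14 of 116 members had an unadjusted p below 0.05, and DESeq2 called none. Of all features 6558 of 17856, 6643 of 18284 and 9387 of 18528 had such a p. L1Md_A in Ctrl cells was already at -0.47 ± 0.08 at T12 (adjusted p = 0.0010) and -0.42 ± 0.05 at T24 (adjusted p = 9.9e-06), under the fold limit. DESeq2 called none at T12 in Ctrl or at T12 and T24 in dPOLE4, so these 4 calls rest on edgeR alone. They and the L1MEj call lay in subfamilies between 0.80 and 4.72 CPM. Each of those in Ctrl and dPOLE4 was lost without any one of 5 of its 6 libraries, all but T0 replicate 1, and the L1MEj call without T0 replicate 2 or 3 or T24 replicate 1 or 2.

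Removal of POLE4 gave no DE member in any of the 10 comparisons of dPOLE4 with Ctrl, 5 in each MCM2 genotype. Of all features, 0%, 0%, 0%, 0.193% and 0% were DE at T0, T12, T24, T60 and 96 h with normal MCM2, and 0.0715%, 0.404%, 1.02%, 2.25% and 0.304% with MCM2-2A. With normal MCM2, 47, 2, 1, 38 and 1 members had an unadjusted p below 0.05 by edgeR at T0, T12, T24, T60 and 96 h. With MCM2-2A 1, 7, 14, 9 and 3 did, and 112 to 117 members were tested in each comparison. Of all features 2069 of 17792, 1150 of 17914, 1451 of 19093, 2446 of 17116 and 2164 of 17580 did with normal MCM2. With MCM2-2A these counts were 2457 of 18171, 3179 of 18077, 3888 of 18441, 4302 of 18473 and 2004 of 17421. DESeq2 called none either, and edgeR called 1 member at T60 with normal MCM2 when Ctrl T60 replicate 2 was left out. The share of all features called in that fit is not given. Many members shared a sign in several of these comparisons. At T0, 106 of 113 members were lower in dPOLE4, where 49.9% of all features were, with medians of -0.24 for the young and -0.21 for the older. L1Md_A was at 2099.8, 1914 and 2219.7 CPM in Ctrl and at 1769, 1728 and 1658 CPM in dPOLE4 (-0.28 ± 0.06, adjusted p = 0.33), apart in every library. Replicate numbers were taken to pair these libraries, which was not shown. With the number as a block the adjusted p of L1Md_A was 0.017, and by DESeq2 it was 0.0043. Under the block L1_Mm (-0.41, adjusted p = 0.0054) and L1MD (-0.44, adjusted p = 0.0063) were among the members with an adjusted p below 0.01, and none passed the fold limit. The summed level of the nuclear-retained RNAs Malat1, Neat1, Kcnq1ot1 and Meg3 was lower too. It was 4318 to 4428 CPM in Ctrl and 4012 to 4187 CPM in dPOLE4. Singly, Kcnq1ot1, Meg3 and Malat1 were at -0.30, -0.14 and -0.09 on the log2 scale and Neat1 at 0.15, and none was DE. The mitochondrial share of counts was 2.39% to 2.86% in Ctrl and 1.22% to 2.47% in dPOLE4. At T60 the shift was the other way, with 102 of 112 members higher, medians of 0.18 and 0.22, and 4 young and 13 older members with dPOLE4 libraries all above Ctrl, where 9.38% of all features had. The nuclear-retained RNAs summed to 4077 to 4990.3 CPM in Ctrl and 4768 to 5293 CPM in dPOLE4 there, with overlap. The medians of the SINE subfamilies were -0.13 at T0 and 0.22 at T60, and the part of these RNAs in the L1 shifts was not tested. Among the other comparisons 87 of 117 members were lower at T24 with normal MCM2, and in MCM2-2A cells 95 of 113 were lower at T12, 93 of 115 higher at T24 and 88 of 114 higher at 96 h, with older medians of -0.047, -0.087, 0.15 and 0.067.

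In MCM2-2A cells the clearest values after POLE4 removal were at T60 and in the active types. L1Md_Gf was at 86.7, 86.7 and 88.7 CPM in Ctrl MCM2-2A and at 121, 130.0 and 128 CPM after POLE4 removal, 0.53 ± 0.06 on the log2 scale (adjusted p = 0.00074) and just under the fold limit. L1Md_T was at 1279, 1416 and 1343 CPM against 1571, 1731 and 2104 CPM (0.42 ± 0.10, adjusted p = 0.021), and L1Md_A at 0.32 ± 0.07 (adjusted p = 0.019). The 3 types were apart in every library, while L1Md_F2 (-0.12 ± 0.10) and L1Md_F3 (0.21 ± 0.09) overlapped. Of the 114 members tested 10, these 3 among them, had dPOLE4 MCM2-2A libraries all above Ctrl MCM2-2A, where 14.2% of all features had. The ratio of young to old was 0.23 higher in dPOLE4 MCM2-2A at T60 and 0.09 higher at 96 h, without overlap, and overlapped at the other times. As a mean over members of log2 CPM these differences were 0.10 and -0.062, so the direction at 96 h turned, and with L1_Mus and L1VL counted as young or the most abundant members left out that at 96 h was 0.047 or 0.031. L1Md_A at 96 h was at 0.18 ± 0.10 (adjusted p = 0.56). With the replicate number, which was taken to pair these libraries, as a block it was at 0.18 (adjusted p = 0.00078), under the fold limit. The older median was 0.07 at T60. Tested as an interaction, the POLE4 effect on L1 members did not pass the DE limits between the genotypes at any time, where 0.00526%, 0.0159%, 0.0351%, 0.1% and 0% of all features did. There 8 of 115, 2 of 114, 11 of 118, 8 of 116 and 2 of 116 members had an unadjusted p below 0.05 at T0, T12, T24, T60 and 96 h. Of all features 1024 of 19007, 1399 of 18911, 1759 of 19961, 1922 of 18982 and 686 of 18555 had such a p.

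Genes known to restrain or use L1 were read from lists alongside. L1td1 (chr4:98726734-98738480, GRCm38), a gene derived from an L1 ORF1, was at 635, 619 and 619 CPM in Ctrl at T0 and at 62.0, 52.7 and 70.4 CPM at T60, a log2 fold change of -3.36 ± 0.08 (adjusted p = 6.4e-14). It was higher in Ctrl MCM2-2A at T60, at 96.8, 87.4 and 95.4 CPM (0.61 ± 0.09, adjusted p = 4.4e-05), and at 0.51 without Ctrl T60 replicate 2. Of the 20 genes of H3K9 methylation and HUSH silencing, 6 fell and 1 rose in Ctrl cells from T0 to T60, where 23.7% of all features fell and 26.9% rose, among them Trim28, the scaffold that recruits the H3K9 methyltransferase to repeats (-1.62 ± 0.08), and Setdb1, that methyltransferase (-0.91 ± 0.06). Of the 10 DNA methylation genes 4 fell and 3 rose. Dnmt3b, a de novo methyltransferase, went from 395, 393 and 382 CPM to 83.9, 72.7 and 87.4 CPM (-2.28 ± 0.07), and Dnmt3l, its cofactor, fell by 1.60 ± 0.11. Dnmt1, the maintenance enzyme, was at -0.02 ± 0.06 (adjusted p = 0.74). Of the 15 genes that restrict L1 RNA or cDNA 5 fell and 2 rose, and the share DE in these lists is to be read against the 50.6% of all features.

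Between genotypes the lists were read in the same way. At T0, 1 of the 20 silencing genes was higher and 1 lower in Ctrl MCM2-2A, where 18.9% of all features were DE, and at T60 2 and 1, where 16.9% were. Of the 10 DNA methylation genes 2 were higher and 1 lower at T0 and 1 was higher at T60. Their summed level was 2822 to 2995 CPM in Ctrl and 3547 to 3642 CPM in Ctrl MCM2-2A at T0. It was 2231 to 2307 and 2806 to 2911 CPM at T12, and 1775 to 1794 and 1968 to 2098 CPM at T24. The genotypes were apart at these times and overlapped at T60 and 96 h. Mphosph8 (chr14:56668248-56697430), the HUSH subunit that binds H3K9me3, was at 32.1, 33.5 and 36.0 CPM in Ctrl at T0 and at 90.9, 88.2 and 92.3 CPM in Ctrl MCM2-2A (1.40 ± 0.06, adjusted p = 2.5e-08). The 74 other genes tested within 2 Mb of it had a median log2 fold change of 0.97, so a raised stretch of chromosome 14 moves with this value. Uhrf1, which brings DNMT1 to newly replicated DNA, was at 486, 479 and 484 CPM in Ctrl and at 833, 770.3 and 782 CPM in Ctrl MCM2-2A at T0 (0.70 ± 0.05, adjusted p = 6.5e-07), and its 59 neighbours had a median of 0.08. At T60 Dnmt3b was higher by 0.75 ± 0.08 (adjusted p = 1.8e-06). The part of these genes in the L1 difference was not tested.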

How the data were processed

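Ribosomal RNA-depleted, strand-specific libraries were sequenced as paired-end reads. The authors trimmed reads with cutadapt 4.2, mapped them to mm10 with STAR allowing multimapping, and deposited raw counts per gene (GENCODE) and per repeat subfamily from TEcount, 1 table for the RA series and 1 for the 96 h experiment. The strand setting of TEcount is not given in the sources used here. Subfamily counts pool all copies, so reads of copies inside other transcripts are included and related subfamilies can exchange reads. The tables held 55487 genes (55141 with a symbol) and 1146 repeat subfamilies.

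Counts were tested with edgeR 4.0.16 (R 4.3.3) by the quasi-likelihood test, with TMM scaling over genes and repeats together, filterByExpr (minimum count 10, minimum total count 15) and Benjamini-Hochberg adjustment over all features tested, in 27 comparisons of 2 groups and 8 interactions. DE meant an adjusted p below 0.01 and a log2 fold change beyond 0.58. CPM are TMM-normalized. The ratio of young to old and the class sums have no test. Depth is given in the results, and its precision is that of counting plus replicate spread. DESeq2 1.42.0 and the other settings described at the end were alternatives.

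No 2 libraries of a group agreed within sampling noise (chi-square per degree of freedom 2.70 to 37.0 over features). Replicate numbers from the titles were taken to pair libraries where the deviations of each same-numbered pair correlated above 0.1, which held in 5 of the 27 comparisons: dPOLE4 against Ctrl at T0 and 96 h in both genotypes, and Ctrl MCM2-2A against Ctrl at 96 h. Pairs with different numbers were not compared, so this does not show that the numbers pair the libraries. Members and gene lists were chosen with earlier results of these data known. Named were each L1Md member, the most abundant member of each older class, up to 3 DE members per direction with the largest changes and no overlap of groups, and listed genes that were DE or fixed by name. L1MC3, L1MEi in Ctrl and the members with a difference in response were named after their values were seen. L1_Mm was placed with the mouse and rodent L1.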

Additional observations from a re-analysis of the deposited data

Results flagged for a closer look

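The change from T0 to T60 differed from that of Ctrl, by the interaction test of edgeR with Benjamini-Hochberg adjustment over all features, for 4 members in Ctrl MCM2-2A and 11 in dPOLE4 MCM2-2A. Each had a less negative change than in Ctrl, and both tests used the same Ctrl libraries.

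In Ctrl MCM2-2A the members were ancient. L1ME3 differed by 1.08 ± 0.27 on the log2 scale (SE, adjusted p = 0.0080), L1MD1 by 0.93 ± 0.22 (adjusted p = 0.0050), L1ME3A by 0.89 ± 0.23 (adjusted p = 0.0088) and L1MC3 by 0.85 ± 0.20 (adjusted p = 0.0052).

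In dPOLE4 MCM2-2A the young L1Md_A differed by 0.86 ± 0.14 (adjusted p = 0.00022) and L1Md_Gf by 0.68 ± 0.09 (adjusted p = 4.2e-05). The largest difference among the 11 was that of L1M7, 1.99 ± 0.34 (adjusted p = 0.00044). L1ME3 differed by 1.22 ± 0.29 (adjusted p = 0.0051), L1_Mm by 1.12 ± 0.23 (adjusted p = 0.0019), L1MD3 by 0.90 ± 0.22 (adjusted p = 0.0059) and L1MC3 by 0.89 ± 0.17 (adjusted p = 0.0013). The remaining 4 were L1MD1 at 0.87 ± 0.21 (adjusted p = 0.0068), L1MC4 at 0.73 ± 0.15 (adjusted p = 0.0017), L1MA5 at 0.68 ± 0.17 (adjusted p = 0.0074) and L1MEc at 0.64 ± 0.16 (adjusted p = 0.0069). Groups of 3 libraries were not searched for single outlying samples.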

How the results depend on the processing

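Counts of DE members were low and moved with the settings, most under no filter and without single libraries, while TMM from genes only and DESeq2 size factors left all 35 counts within 1.5 times. The counts below are given without the share of all features called under the same setting. Without a filter on low counts dPOLE4 against Ctrl gave 1 at T24 and 96 h, and in MCM2-2A 1 at T12, 3 at T24 and 1 at 96 h. Ctrl MCM2-2A against Ctrl gave 3, 4, 11 and 3 at T0, T24, T60 and 96 h. Against T0 it gave 4 and 1 (T12, T24 Ctrl), 2 and 2 (dPOLE4) and 1 and 4 (Ctrl MCM2-2A). The interactions of the POLE4 effect gave 1, 1, 2, 1 and 1, and the responses of dPOLE4, Ctrl MCM2-2A and dPOLE4 MCM2-2A differed for 9, 36 and 32. With a replicate block, in comparisons where the numbers were not shown to pair the libraries, Ctrl MCM2-2A against Ctrl gave 2, 2 and 8 at T0, T12 and T60, T24 Ctrl gave 1, T12 and T24 dPOLE4 2 and 0, and the responses 23 and 26. Where the numbers were taken to pair the libraries the block moved only the 96 h count, to 2. DESeq2 gave 0 for T12 Ctrl, T12 dPOLE4 and T24 dPOLE4, and 12 and 17 for the responses. With all groups in one fit dPOLE4 in MCM2-2A at T24 gave 1, Ctrl MCM2-2A against Ctrl 2 (T0) and 3 (96 h), T12 and T24 dPOLE4 0 and 0, T12 and T24 Ctrl MCM2-2A 1 and 3, and T12 dPOLE4 MCM2-2A 1. Requiring 10 counts in every library gave 8 (Ctrl MCM2-2A against Ctrl at T60) and 5 (T60 dPOLE4 MCM2-2A). With no fold limit, dPOLE4 in MCM2-2A at T60 gave 1, Ctrl MCM2-2A against Ctrl 4, 9, 21 and 3 (T0, T24, T60, 96 h), T12 and T24 Ctrl 10 and 20, dPOLE4 4, 2 and 57 (T12, T24, T60), Ctrl MCM2-2A 3 and 20 (T24, T60) and dPOLE4 MCM2-2A 1 and 16.

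Leaving out single libraries gave 0 to 1 (dPOLE4 at T60), 0 to 4, 2 to 4, 2 to 4, 2 to 27 and 0 to 2 (Ctrl MCM2-2A against Ctrl at T0, T12, T24, T60 and 96 h), 0 to 4, 0 to 1 and 47 to 85 (T12, T24, T60 Ctrl), 0 to 2, 0 to 1 and 14 to 26 (dPOLE4), 0 to 4 and 8 to 23 (T24, T60 Ctrl MCM2-2A), 4 to 12 (T60 dPOLE4 MCM2-2A), and 0 to 24 and 6 to 33 (responses of the MCM2-2A arms). L1Md_T at T60 against T0 in dPOLE4 MCM2-2A, -0.17 ± 0.18, ran from -0.32 to 0.11, the positive value without T0 replicate 3, the deepest library.

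The ratio of young to old was higher in Ctrl MCM2-2A than in Ctrl under each of its alternatives. As a mean over members of log2 CPM the difference was 0.20, 0.41, 0.20 and 0.28 (T12, T24, T60, 96 h), with L1_Mus and L1VL counted as young 0.32, 0.36 and 0.18 (T12, T24, T60), with young restricted to L1Md_A, L1Md_T and L1Md_Gf 0.52, 0.57 and 0.42, and with the most abundant member of each class left out 0.29, 0.32, 0.24 and 0.34. For T60 against T0 these gave, in Ctrl, dPOLE4 and Ctrl MCM2-2A, -0.17, -0.20 and -0.35 (mean), -0.54, -0.41 and -0.58 (restricted) and -0.11, -0.017 and -0.18 (most abundant left out, with 0.055 in dPOLE4 MCM2-2A). Smaller differences moved as well. The mean gave 0.078 (dPOLE4 T24), -0.17, 0.10 and -0.062 (dPOLE4 in MCM2-2A at T24, T60 and 96 h), 0.065 (T12 Ctrl) and -0.11 (T12 Ctrl MCM2-2A). Counting L1_Mus and L1VL as young gave 0.047 for dPOLE4 in MCM2-2A at 96 h, and restricting gave 0.31 at T60. Leaving out the most abundant gave 0.031 (dPOLE4 in MCM2-2A at 96 h), 0.076 and -0.015 (T12, T24 Ctrl), 0.15 (T12 dPOLE4) and 0.058 (T12 Ctrl MCM2-2A). A threshold of 1000 counts and leaving out single libraries moved no difference in ratio beyond the replicate spread. The cause of these changes was not tested. Depth limits the ancient members most: L1M7 had 9 to 184 counts a library and L1Md_A 7176 to 121033.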

Other observations

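L1Md_F stood apart from the other young subfamilies in how its libraries were spread. In 53 of the 60 libraries it lay between 33.1 and 73.7 CPM, and in the other 7 between 113 and 366 CPM. The 7 were single replicates of 7 groups: Ctrl MCM2-2A at T0 (replicate 3), T24 (replicate 2), T60 (replicate 1) and 96 h (replicate 2), dPOLE4 at T24 (replicate 3) and 96 h (replicate 2), and Ctrl at 96 h (replicate 3). The highest was dPOLE4 at 96 h, at 366 CPM. The limit of 100 CPM was set after the values were seen.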
